A study of Mus musculus with 9 samples.

Results

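The 36 genes described here are interferon-stimulated genes and 3 genes that load peptides onto class I molecules, read in mouse gastrocnemius, a calf muscle. They were chosen by name, with earlier results of these data known, and the list leaves out the interferon-inducible GTPases and the immunoproteasome. All 36 were found among the 24062 gene symbols of the count table. Whole muscle was collected at 3 months of age from mice of 3 genotypes on a 129Sve/C57BL/6 mixed background. The hetX753 mice (BubR1+/X753) carry 1 X753 allele of BubR1, the hetL1002P mice (BubR1+/L1002P) carry 1 L1002P allele, and each of them keeps 1 wild-type allele; the WT mice carry neither mutant allele. Both alleles belong to mosaic variegated aneuploidy (MVA), a syndrome of chromosome missegregation, and BubR1, encoded by Bub1b, is a spindle checkpoint protein. No further treatment is given in the labels for any of the 3 genotypes. Each genotype has 3 libraries, and the labels do not say whether each came from its own animal. The comparisons ask how far carrying either allele moves the interferon-stimulated genes of young muscle.

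Interferons are secreted proteins that bind receptors on the cell surface. The receptors activate JAK kinases, which phosphorylate STAT transcription factors. In the type I response a complex that holds Stat2 and Irf9 binds the interferon-stimulated response element (ISRE), and the type II response acts through the gamma-activated site (GAS). The genes behind these elements encode sensors of foreign nucleic acid, antiviral effectors and the machinery that presents peptides to T cells. In healthy tissue without infection they are held at a low tonic level.

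The promoters of 5 members are shown as examples that carry those elements before a start. Each runs 5′ to 3′ on the gene's strand over the 250 bases before a RefSeq start (GRCm38.p6). Capitals mark the ISRE core (GAAA, any 2 bases, GAAA) or its reverse complement in Isg15, Ifit3, Rsad2 and Bst2, and TTCNNNGAA, the GAS, in Irf1.
Isg15: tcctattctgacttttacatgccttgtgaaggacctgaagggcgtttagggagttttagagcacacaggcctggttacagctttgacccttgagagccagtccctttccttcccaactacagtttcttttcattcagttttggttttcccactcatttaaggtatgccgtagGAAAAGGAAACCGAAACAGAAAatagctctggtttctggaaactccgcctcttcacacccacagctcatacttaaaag
Ifit3: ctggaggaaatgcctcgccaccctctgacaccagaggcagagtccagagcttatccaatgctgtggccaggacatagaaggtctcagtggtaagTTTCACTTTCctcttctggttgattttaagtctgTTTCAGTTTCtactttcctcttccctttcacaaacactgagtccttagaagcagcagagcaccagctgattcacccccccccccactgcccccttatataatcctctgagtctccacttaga
Rsad2: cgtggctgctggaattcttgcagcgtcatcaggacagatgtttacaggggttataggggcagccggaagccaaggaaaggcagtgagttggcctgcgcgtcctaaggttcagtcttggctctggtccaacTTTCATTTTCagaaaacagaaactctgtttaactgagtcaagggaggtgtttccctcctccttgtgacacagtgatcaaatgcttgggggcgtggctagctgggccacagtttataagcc
Bst2: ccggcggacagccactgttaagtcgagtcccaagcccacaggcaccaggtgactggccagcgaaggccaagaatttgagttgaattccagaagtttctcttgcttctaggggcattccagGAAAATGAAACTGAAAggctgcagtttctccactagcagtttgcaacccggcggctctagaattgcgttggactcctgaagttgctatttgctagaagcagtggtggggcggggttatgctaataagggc
Irf1: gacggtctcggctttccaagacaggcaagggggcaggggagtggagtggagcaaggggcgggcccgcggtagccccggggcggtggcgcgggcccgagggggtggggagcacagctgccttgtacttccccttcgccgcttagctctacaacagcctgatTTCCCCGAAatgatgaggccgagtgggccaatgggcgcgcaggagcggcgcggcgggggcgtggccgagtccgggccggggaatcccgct
Isg15 (chr4:156200819-156201068, minus strand) has 3 overlapping matches, from 78 to 57 bases before the start. Ifit3 (chr19:34583279-34583528, plus strand) has 2 matches between 156 and 113 bases before the start used here. The RefSeq gene of Ifit3 begins at 34583119, so this window lies inside it, before a start further in. Rsad2 (chr12:26456453-26456702, minus strand) has 1 match, from 120 to 111. Bst2 (chr8:71537473-71537722, minus strand) has 2 overlapping matches from 130 to 115, and a GAS match that begins 136 bases before the start overlaps them. Irf1 (chr11:53769764-53770013, plus strand) has 1 GAS match, from 90 to 82. A stretch of bases just after the start was found within a GENCODE M21 transcript of the gene for the other 4 but not for Bst2. Whether a transcript begins at each start was not checked.

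Windows of 300 bases, 250 before and 50 after a start, were at hand for 26 of the 36 members and were searched on both strands. The ISRE core stood in 10 of the 26 (38.5%), namely Stat2, Ifih1, Ddx58, Ifit1, Ifit3, Oas1a, Eif2ak2, Rsad2, Bst2 and Isg15, against 3.99% of all 27025 genes with a window and 3.44% of all 32851 windows. The GAS letters stood in 7 of the 26 (26.9%), namely Irf1, Ifit2, Oas1a, Eif2ak2, Adar, Bst2 and Ifi35, against 9.55% of all genes and 8.3% of all windows. These are matches of letters only. No window was found for Dhx58, Zbp1, Mx1, Mx2, Usp18, Parp9, Parp14, Rtp4, Ifi27 or Tap2.

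The libraries held 19768149 to 33977252 counts. hetL1002P 3 and WT 3 stood apart. Their scores on the first principal component of all genes, which held 39.7% of the variance, were -32.5 for hetL1002P 3 and -47.5 for WT 3, where the other 7 libraries scored -9.52 to 28.8, so counts of members are also given without them. Bub1b itself had 8, 8 and 5 counts in hetX753, 10, 9 and 2 in hetL1002P and 21, 11 and 16 in WT, below every WT library in both carriers without passing the adjusted threshold. The muscle label was borne out by 8 fibre markers, Acta1, Ckm and Myh4 among them, which summed to 187100 to 243500 CPM (counts scaled to the size of the library).

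The interferon-stimulated genes were low in all 3 genotypes. Of the 36 members, 34 had enough reads to be tested. The tested members had 4 to 1305 counts in a library and a median level of 3.2 CPM (scaled by the trimmed mean of M values, TMM), and 29 members averaged at least 1 CPM. Per kilobase of exon, Ifi27 was the highest at 20.4 CPM per kb, followed by Tapbp at 9.88, Ifi35 at 8.27, Bst2 at 8.17 and Tap2 at 3.54. Mx1, at 0.0233 CPM per kb, and Ifi44, at 0.067, were the lowest. Summed over the 36 members the level was 207, 190 and 203 CPM in hetX753, 180, 195 and 193 CPM in hetL1002P and 191, 215 and 199 CPM in WT. The 3 genotypes overlapped in this sum, at 200.0 ± 8.8, 189 ± 7.85 and 202 ± 12.3 CPM (SD, n = 3 each). The sum is weighted to the most abundant members, Tapbp, Ifi27, Ifi35 and Tap2, which averaged 35.8, 30.0, 14.3 and 13.4 CPM. Members at low levels, such as Isg15 at 0.988 CPM, add little to it, so it says little about them. In whole tissue, fewer cells of a type and less RNA per cell cannot be told apart.

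**Figure D1:**
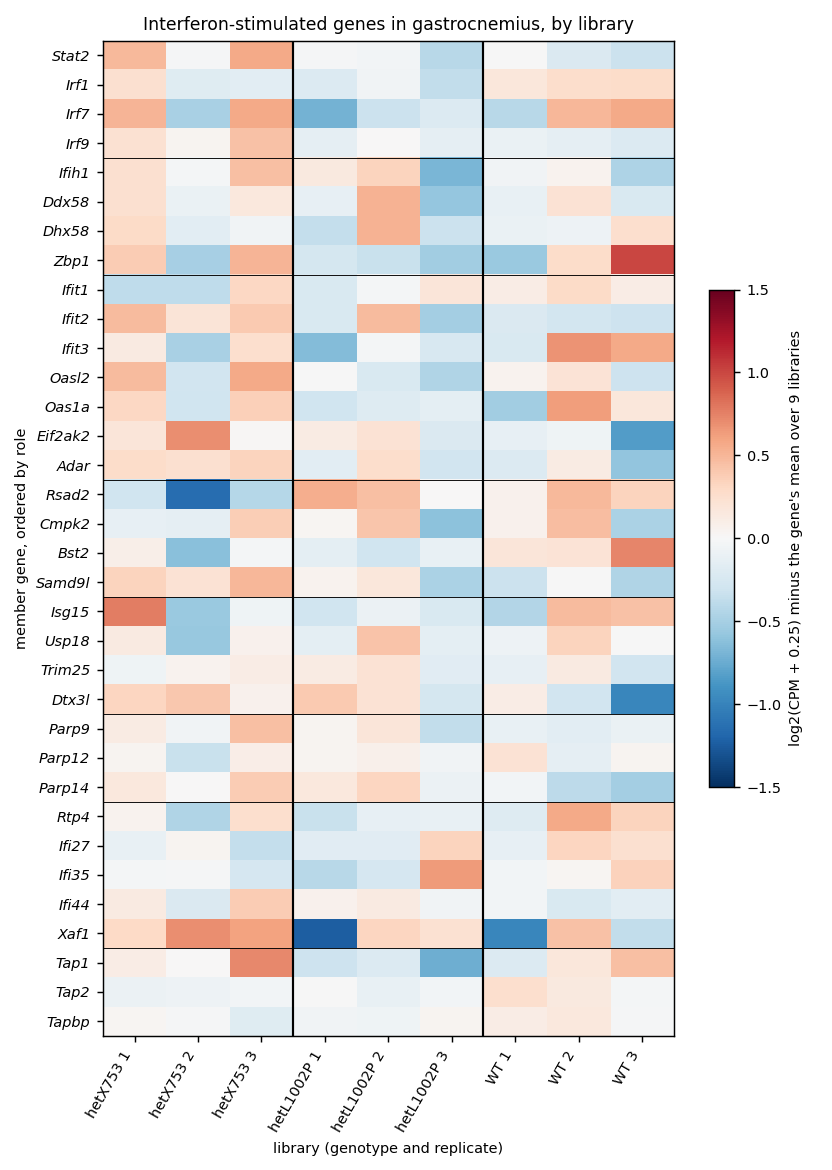
Level of the 34 tested members in each of the 9 libraries, as log2(CPM + 0.25) minus the gene's own mean over the libraries (colour), with genes ordered by role and libraries by genotype. hetX753 3 is the highest of the 9 libraries for 12 members and hetL1002P 3 the lowest for 10.

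No member passed an adjusted p of 0.05 in any comparison (edgeR quasi-likelihood test, Benjamini-Hochberg over 12989 genes). Against WT, 0 of 34 members were called in hetX753, where 0.508% of all genes tested were called, and 0 of 34 in hetL1002P, where 0% were. Between hetX753 and hetL1002P, 0 of 34 were called against 0.115% of all genes, and the joint test for any difference among the 3 genotypes called 0 of 34 against 0.216%. DESeq2 and limma-voom also called 0 members in every comparison, though up to 4 members had no DESeq2 adjusted p. Over all genes DESeq2 called 660 for hetX753 against WT, 5 for hetL1002P against WT, 138 for hetX753 against hetL1002P and 384 jointly. In the same order limma-voom called 55, 2, 16 and 21. With edgeR the smallest adjusted p of a member was 0.137 for hetX753 against WT and 0.316 for hetX753 against hetL1002P, both for Rsad2. For hetL1002P against WT it was 0.579. The call counts over all genes moved strongly with single libraries, for hetX753 against WT between 0 without WT 1 and 669 without hetL1002P 3, but the count of members stayed at 0 in each of these fits. The hetL1002P and WT libraries of the same replicate number deviated together, though what a number marks is not known. A fit of these 2 genotypes with the number as a block called 635 genes (5.01%) and 0 of 31 members tested. In that blocked fit the smallest adjusted p of a member was 0.0506, for Bst2, and 7 members (22.6%) had an unadjusted p under 0.05, against 24% of all genes.

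At an unadjusted p under 0.05, hetX753 against WT held 8 members that were higher (23.5%, against 11.2% of all genes) and 2 that were lower (5.88%, against 9.69%). The 8 were Adar, Dtx3l, Eif2ak2, Ifit2, Irf9, Parp14, Samd9l and Stat2, and the 2 were Bst2 and Rsad2. In hetL1002P against WT, Parp14 alone was higher (2.94%, against 5.39% of all genes), and Bst2, Ifit3 and Irf1 were lower (8.82%, against 2.57%). In hetX753 against hetL1002P, Irf9, Stat2 and Tap1 were higher (8.82%, against 3.9%) and Rsad2 was lower (2.94%, against 4.34%). By the joint test 8 members (23.5%, against 14% of all genes) reached it. Without hetL1002P 3 and WT 3 the numbers of members, in both directions together, were 6 for hetX753 against WT (17.6%, against 22.6% of all genes in that fit), 2 for hetL1002P against WT (5.88%, against 19.8%), 2 for hetX753 against hetL1002P (5.88%, against 14.8%) and 1, Rsad2, for the joint test (2.94%, against 24.3%). With all 9 libraries the shares in both directions together were 29.4% of members against 20.9% of all genes for hetX753 against WT, 11.8% against 7.96% for hetL1002P against WT, and 11.8% against 8.24% for hetX753 against hetL1002P. In each comparison the share of members thus lay above that of all genes with the 9 libraries and below it without those 2. The 2 comparisons with WT share the WT libraries, and the 2 with hetX753 share the hetX753 libraries.

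The groups separated completely for few members. In hetX753, all libraries lay above all WT libraries for 7 members (20.6%, against 16.7% of all genes) and below them for 3 (8.82%, against 15.8%). In hetL1002P, 0 members lay wholly above WT (5.67% of all genes did) and 2 wholly below (5.88%, against 3.77%). hetX753 lay wholly above hetL1002P for 4 members (11.8%, against 7.44%) and wholly below for 1 (2.94%, against 6.98%).

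As a list, the 34 members had a median log2 fold change of 0.04 in hetX753 against WT, where the median of all genes was 0.00, and 19 of the 34 lay above 0 (55.9%, against 50.4% of all genes). That median rested on single libraries: it was 0.26 without hetX753 2, 0.16 without WT 3 and -0.017 without hetX753 1. In hetL1002P against WT it was -0.02, where all genes had 0.01, with 15 members above 0 (44.1%, against 51.8%). In hetX753 against hetL1002P it was 0.19, where all genes had -0.01, with 25 members above 0 (73.5%, against 47.4%). Leaving out 1 library at a time gave 0.09 without hetL1002P 3 to 0.38 without hetL1002P 2. hetX753 3 was the highest of the 9 libraries for 12 members, and hetL1002P 3 the lowest for 10. The largest differences were -1.03 for Rsad2 and 0.81 for Xaf1 in hetX753 against WT, and -1.15 for Zbp1 and 0.47 for Dtx3l in hetL1002P against WT. Within 0.5 of 0 on the log2 scale lay 24, 27 and 26 of the 34 members for hetX753 against WT, hetL1002P against WT and hetX753 against hetL1002P, where 81.5%, 90.4% and 89.9% of all genes did.

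**Figure D2:**
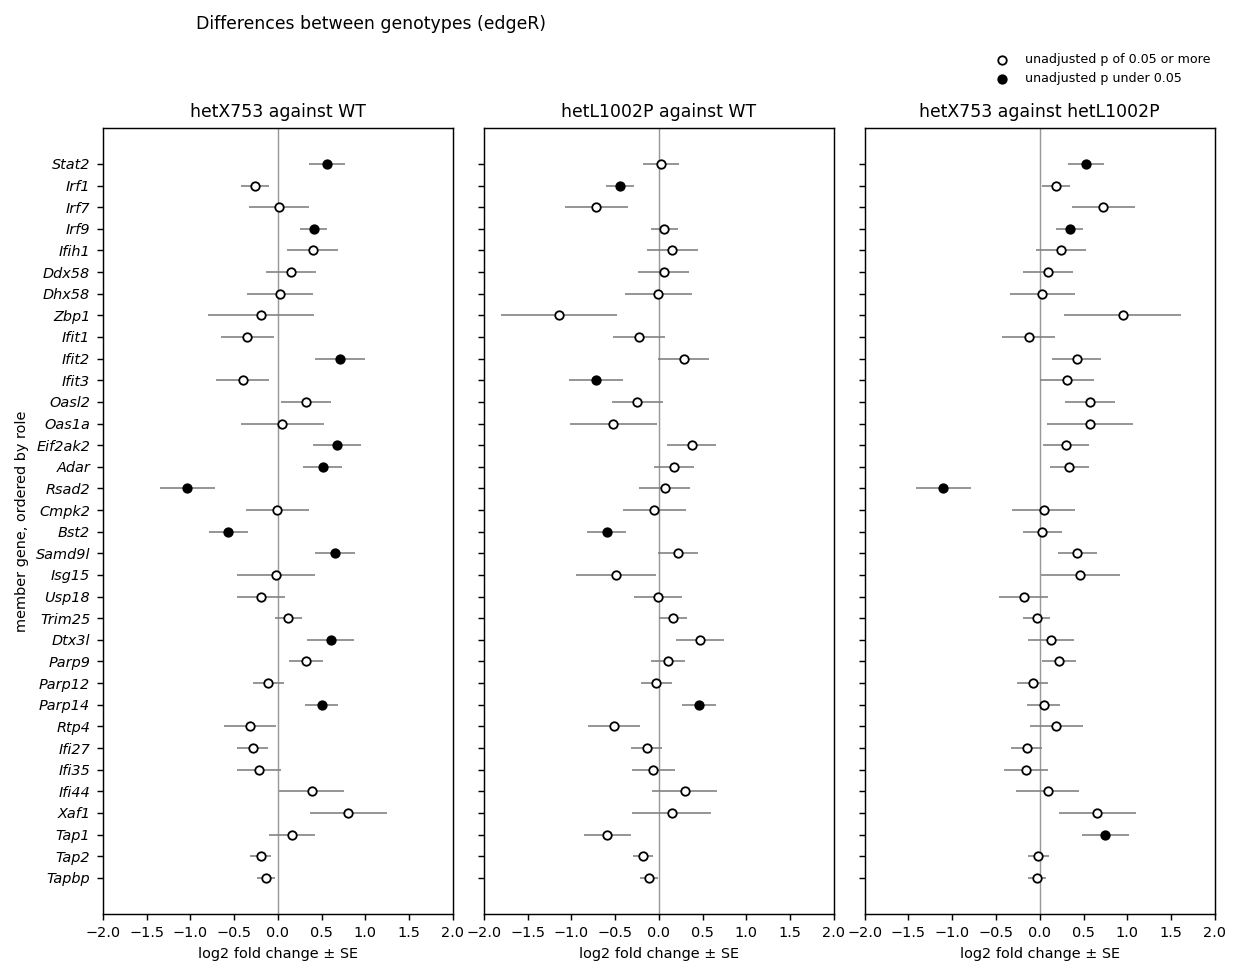
Log2 fold change of each of the 34 tested members in the 3 comparisons, with bars of 1 standard error; filled points have an unadjusted p under 0.05. The filled points number 10 for hetX753 against WT, 4 for hetL1002P against WT and 4 for hetX753 against hetL1002P, and no member passed the adjusted threshold.

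Among the transcription factors of the response, Stat2 and Irf9, which belong to the complex that binds the ISRE, had their highest libraries in hetX753. Stat2 stood at 6.97, 4.85 and 7.38 CPM in hetX753, 4.84, 4.78 and 3.61 CPM in hetL1002P and 4.91, 4.18 and 3.87 CPM in WT. All hetX753 libraries lay above all hetL1002P libraries by a narrow margin, while hetX753 2 lay below WT 1. The log2 fold change of Stat2 was 0.56 ± 0.21 (SE) for hetX753 against WT (adjusted p = 0.18) and 0.53 ± 0.20 for hetX753 against hetL1002P (adjusted p = 0.512). Irf9 stood at 6.39, 5.604 and 7.43 CPM in hetX753, 4.92, 5.43 and 4.93 CPM in hetL1002P and 5.03, 4.90 and 4.69 CPM in WT. Every hetX753 library lay above the other 6, with a log2 fold change of 0.41 ± 0.16 against WT (adjusted p = 0.188) and 0.34 ± 0.15 against hetL1002P (adjusted p = 0.604). Exons of Irf9 overlap those of Rnf31 on the same strand, so reads there may be shared.

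Irf1, a transcription factor induced through the GAS shown above, had its lowest mean in hetL1002P. It stood at 9.59, 7.10 and 7.25 CPM in hetX753, 7.003, 7.80 and 6.21 CPM in hetL1002P and 9.14, 9.76 and 9.86 CPM in WT. All hetL1002P libraries lay below all WT libraries. Of the hetX753 libraries, hetX753 1 lay among the WT values, and hetX753 2 and hetX753 3 lay below them. The log2 fold change was -0.45 ± 0.16 for hetL1002P against WT (adjusted p = 0.579) and -0.26 ± 0.16 for hetX753 against WT (adjusted p = 0.351). Irf7, which amplifies the type I response, averaged 3.59 ± 1.37 CPM in hetX753, 2.17 ± 0.427 CPM in hetL1002P and 3.60 ± 1.28 CPM in WT (SD, n = 3 each), with 43 to 119 counts a library. The hetX753 libraries ran between 2.01 and 4.48 CPM and the WT libraries between 2.13 and 4.45 CPM, so both ranges held the hetL1002P mean.

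The sensors of foreign nucleic acid overlapped between the genotypes. Ifih1, which encodes the double-stranded RNA sensor MDA5, stood at 3.38, 2.76 and 3.97 CPM in hetX753, 3.15, 3.63 and 1.66 CPM in hetL1002P and 2.72, 2.94 and 1.98 CPM in WT. The 3 genotypes overlapped, and the log2 fold change of hetX753 against WT was 0.40 ± 0.29 (adjusted p = 0.432). Ddx58, which encodes RIG-I, averaged 2.99 ± 0.381 CPM in hetX753, 2.78 ± 1.18 CPM in hetL1002P and 2.71 ± 0.486 CPM in WT. Dhx58, which encodes the related helicase LGP2, averaged 0.805 ± 0.177 CPM in hetX753, 0.781 ± 0.382 CPM in hetL1002P and 0.7999 ± 0.145 CPM in WT. Both genes had means within the spread of the other genotypes. Zbp1, a sensor of Z-form nucleic acid, had 4 to 21 counts a library, so its log2 fold change of -1.15 for hetL1002P against WT rests on few reads.

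Effectors that act on viral RNA or on translation gave 3 of the 8 members that were higher in hetX753 than in WT at an unadjusted p under 0.05. Eif2ak2, which encodes the kinase PKR that halts translation on double-stranded RNA, stood at 3.59, 5.25 and 3.19 CPM in hetX753, 3.42, 3.67 and 2.66 CPM in hetL1002P and 2.87, 2.99 and 1.64 CPM in WT. All hetX753 libraries lay above all WT libraries (log2 fold change 0.67 ± 0.27, adjusted p = 0.206), and hetL1002P lay between and overlapped both. Ifit2, which binds RNA and restrains translation, stood at 2.59, 2.09 and 2.45 CPM in hetX753, 1.50, 2.59 and 1.19 CPM in hetL1002P and 1.51, 1.45 and 1.402 CPM in WT. The WT values lay close together below every hetX753 value (0.70 ± 0.28, adjusted p = 0.204), and hetL1002P 2 equalled the highest hetX753 library to 3 digits. Adar, the adenosine deaminase that edits double-stranded RNA, stood at 4.60, 4.50 and 4.80 CPM in hetX753, 3.34, 4.57 and 3.04 CPM in hetL1002P and 3.23, 4.13 and 2.42 CPM in WT. The hetX753 libraries lay within a narrow band above WT (0.51 ± 0.23, adjusted p = 0.235).

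Other members of the same families did not share that order. Ifit3, which works in a complex with Ifit1 in human cells, stood at 3.23, 2.01 and 3.51 CPM in hetX753, 1.77, 2.84 and 2.42 CPM in hetL1002P and 2.46, 4.80 and 4.45 CPM in WT. WT 2 and WT 3 were the highest and WT 1 lay among the carriers, with a log2 fold change of -0.72 ± 0.31 for hetL1002P against WT (adjusted p = 0.579). Ifit2 lies 6.58 kb from Ifit3 and 64.4 kb from Ifit1 on chromosome 19. Ifit1, which binds the 5′ end of foreign RNA, averaged 1.004 ± 0.37 CPM in hetX753, 1.09 ± 0.188 CPM in hetL1002P and 1.27 ± 0.106 CPM in WT. For hetX753 against WT the 3 neighbouring genes therefore had log2 fold changes of 0.70 for Ifit2, -0.40 for Ifit3 and -0.35 for Ifit1. Oasl2, of the oligoadenylate synthetase family, averaged 2.49 ± 0.794 CPM in hetX753, 1.67 ± 0.296 CPM in hetL1002P and 1.98 ± 0.396 CPM in WT. Oas1a, an oligoadenylate synthetase that activates RNase L, had 8 to 17 counts a library and overlapped in the 3 genotypes.

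Rsad2 had the smallest p of the members. It encodes viperin, an enzyme that makes a chain-terminating nucleotide against viruses, and lies at chr12:26442743-26456452. It had 33, 14 and 23 counts in hetX753, 59, 60 and 32 in hetL1002P and 54, 43 and 41 in WT. These were 1.19, 0.552 and 1.06 CPM in hetX753, 2.32, 2.16 and 1.52 CPM in hetL1002P and 1.60, 2.22 and 1.98 CPM in WT. Every hetX753 library lay below the other 6. The log2 fold change was -1.03 ± 0.31 for hetX753 against WT (adjusted p = 0.137), with adjusted p between 0.0539 (DESeq2) and 0.363 over the other settings, and -1.10 ± 0.31 for hetX753 against hetL1002P (adjusted p = 0.316). Its divergent neighbour Cmpk2, a mitochondrial nucleotide kinase 12.7 kb away, averaged 1.66 ± 0.401 CPM in hetX753, 1.58 ± 0.623 CPM in hetL1002P and 1.66 ± 0.604 CPM in WT. The low hetX753 values of Rsad2 thus stood beside Cmpk2 means that lay within each other's spread.

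Bst2 and Samd9l lay in opposite directions. Bst2, which encodes tetherin, a membrane protein that holds budding virions at the cell surface, stood at 7.62, 4.54 and 7.02 CPM in hetX753, 6.45, 5.75 and 6.59 CPM in hetL1002P and 8.14, 8.26 and 12.04 CPM in WT. All 6 carrier libraries lay below the 3 WT libraries, of which WT 3 stood furthest. The log2 fold change was -0.56 ± 0.22 for hetX753 against WT (adjusted p = 0.194) and -0.59 ± 0.22 for hetL1002P against WT (adjusted p = 0.579). Samd9l, an interferon-induced restriction factor, stood at 3.92, 3.59 and 4.43 CPM in hetX753, 3.19, 3.49 and 2.13 CPM in hetL1002P and 2.40, 3.05 and 2.18 CPM in WT. Every hetX753 library lay above the other 6, with a log2 fold change of 0.65 ± 0.23 against WT (adjusted p = 0.167) and 0.43 ± 0.22 against hetL1002P (adjusted p = 0.689). Mx1 and Mx2, genes of the antiviral dynamin-like GTPase family, were too low to test. Mx1 had 2, 0 and 6 counts in hetX753, 0, 6 and 0 in hetL1002P and 1, 2 and 2 in WT. A count of 0 allows up to 3 counts, which is 0.0888 to 0.155 CPM in these libraries and covers counting error only. Mx2 had 4 to 8 counts in every library.

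**Figure D3:**
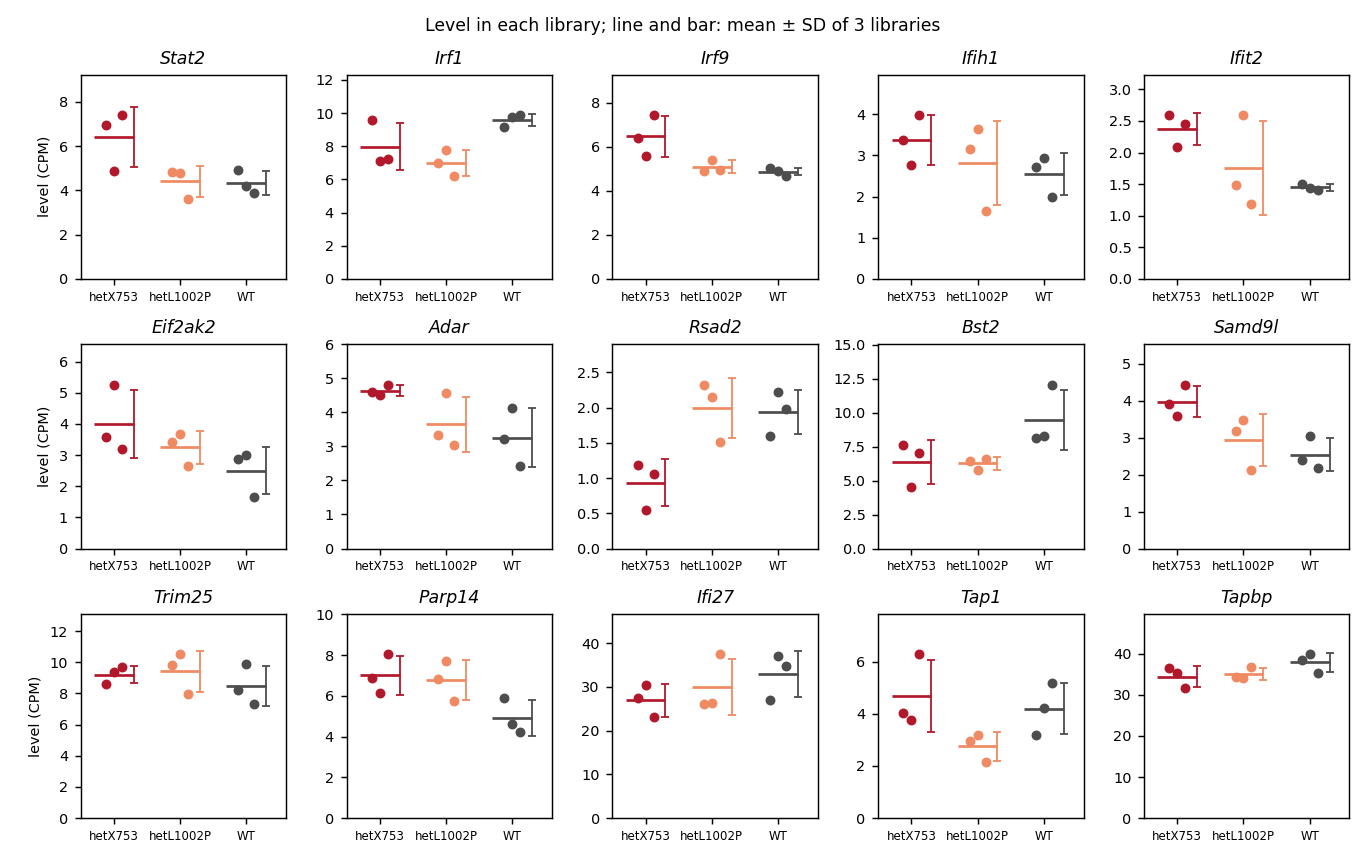
Level in CPM of 15 members in each library of the 3 genotypes (points), with the mean (line) and SD of 3 libraries (bar); each panel starts at 0. For Rsad2 every hetX753 library lies below the other 6, for Irf9 and Samd9l every one lies above them, and for Bst2 the carriers lie below WT.

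In the ISG15 system the ubiquitin-like protein Isg15 is attached to other proteins and removed by Usp18. Isg15 averaged 1.31 CPM per kb of exon and Usp18 0.838 CPM per kb. Isg15 (chr4:156199424-156200818), with the 3 ISRE matches shown above, stood at 1.76, 0.552 and 0.877 CPM in hetX753, with a mean of 1.06 ± 0.625 CPM, against 0.777 ± 0.0788 CPM in hetL1002P and 1.12 ± 0.435 CPM in WT. hetX753 held both the highest and the lowest of the 9 libraries. Usp18 averaged 2.14 ± 0.591 CPM in hetX753, 2.42 ± 0.647 CPM in hetL1002P and 2.46 ± 0.423 CPM in WT. Trim25, a ubiquitin ligase that acts on RIG-I, stood at 8.59, 9.35 and 9.69 CPM in hetX753, 9.84, 10.5 and 7.97 CPM in hetL1002P and 8.23, 9.86 and 7.35 CPM in WT. The 3 genotypes overlapped, with a log2 fold change of 0.12 ± 0.16 for hetX753 against WT (adjusted p = 0.68). Dtx3l, a ubiquitin ligase that works with Parp9, stood at 8.08, 8.56 and 6.74 CPM in hetX753, 8.50, 7.51 and 5.31 CPM in hetL1002P and 6.92, 5.21 and 3.14 CPM in WT. WT 1 overlapped both carriers, and the log2 fold change was 0.60 ± 0.27 for hetX753 against WT (adjusted p = 0.237) and 0.47 ± 0.27 for hetL1002P against WT (adjusted p = 0.579).

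The 3 ADP-ribosyltransferase genes sit in part beside Dtx3l: on chromosome 16, Parp9 overlaps Dtx3l head to head on the opposite strand and Parp14 lies 55.0 kb from it. Parp14 stood at 6.86, 6.12 and 8.03 CPM in hetX753, 6.84, 7.73 and 5.74 CPM in hetL1002P and 5.92, 4.59 and 4.21 CPM in WT. All hetX753 libraries lay above WT, and of the hetL1002P libraries only hetL1002P 3 fell within the WT range. The log2 fold change was 0.50 ± 0.19 for hetX753 against WT (adjusted p = 0.185) and 0.46 ± 0.19 for hetL1002P against WT (adjusted p = 0.579). Parp9 averaged 6.11 ± 1.16 CPM in hetX753, 5.23 ± 1.04 CPM in hetL1002P and 4.88 ± 0.118 CPM in WT. All hetX753 libraries lay above WT for Parp9 too (log2 fold change 0.32, adjusted p = 0.351). The library kit named in the labels does not mark strand, so reads in the exons that Parp9 shares with Dtx3l cannot be told apart. Parp12, a zinc-finger member of the family on chromosome 6, averaged 4.67 ± 0.768 CPM in hetX753, 4.93 ± 0.252 CPM in hetL1002P and 5.02 ± 0.647 CPM in WT.

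Ifi27, a small membrane protein, had the highest level per kilobase of the members. It stood at 27.4, 30.4 and 23.03 CPM in hetX753, 26.2, 26.2 and 37.4 CPM in hetL1002P and 27.1, 37.1 and 34.9 CPM in WT. The values overlapped, and the log2 fold change of hetX753 against WT was -0.29 ± 0.18 (adjusted p = 0.354). Xaf1, an antagonist of the apoptosis inhibitor Xiap, stood at 3.99, 5.37 and 4.99 CPM in hetX753, 1.22, 4.06 and 3.80 CPM in hetL1002P and 1.51, 4.44 and 2.42 CPM in WT. Its log2 fold change of 0.81 for hetX753 against WT was the highest of the members, and the spread within WT and hetL1002P was wide enough that the adjusted p was 0.314. Ifi35, a partner of the Nmi protein, averaged 13.1 ± 1.19 CPM in hetX753, 14.6 ± 6.24 CPM in hetL1002P and 15.2 ± 2.23 CPM in WT. Rtp4, a receptor-transporting protein, averaged 1.52 ± 0.421 CPM in hetX753, 1.33 ± 0.135 CPM in hetL1002P and 1.93 ± 0.554 CPM in WT. Ifi44 had 6 to 13 counts a library and overlapped in the 3 genotypes.

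The antigen presentation members carry peptides to class I molecules: Tap1 and Tap2 form the transporter into the endoplasmic reticulum, and Tapbp, or tapasin, bridges it to class I molecules. Tap1 stood at 4.02, 3.75 and 6.28 CPM in hetX753, 2.95, 3.20 and 2.13 CPM in hetL1002P and 3.20, 4.23 and 5.17 CPM in WT. All hetX753 libraries lay above all hetL1002P libraries, and WT overlapped both. The log2 fold change was 0.75 ± 0.27 for hetX753 against hetL1002P (adjusted p = 0.462) and -0.59 ± 0.27 for hetL1002P against WT (adjusted p = 0.579). Tap2, 7.25 kb from Tap1 on chromosome 17, averaged 12.7 ± 0.207 CPM in hetX753, 12.9 ± 0.471 CPM in hetL1002P and 14.6 ± 1.45 CPM in WT. Every hetX753 library lay below WT for Tap2, by a log2 fold change of -0.20 (adjusted p = 0.339). Tapbp stood at 36.5, 35.2 and 31.6 CPM in hetX753, 34.3, 34.2 and 36.8 CPM in hetL1002P and 38.6, 39.9 and 35.3 CPM in WT. WT 3 lay among the carriers, and the log2 fold change of hetX753 against WT was -0.14 ± 0.10 (adjusted p = 0.443). Exons of 15 of the 36 members overlap another gene, 12 of them on the other strand, including Tap1 with Psmb9 and Adar with Chrnb2.

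The 26 members with a window were also split by the ISRE letters. For hetX753 against WT, 5 of the 10 with the letters lay above 0, with a median log2 fold change of 0.01, against 11 of the 16 without, with 0.24. For hetL1002P against WT, 5 of the 10 lay above 0, with a median of -0.10, against 8 of 16, with 0.02. For hetX753 against hetL1002P, 8 of the 10 lay above 0, with a median of 0.27, against 12 of 16, with 0.26. Members without the letters lack them only in the windows at hand, and the matches of Ifih1, Ddx58 and Eif2ak2 lie after the start. No test was made of these medians. Rsad2 and Bst2 lay low in hetX753 against WT, while Stat2 and Eif2ak2, with the same letters, lay high.

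The interferons themselves were close to undetected. Of 19 interferon and related cytokine genes, 16 had 0 counts in all 9 libraries, Ifnb1 and every listed Ifna gene among them, and Ifng had at most 1 count in a library. The receptors and kinases had more reads. Jak1, a kinase of both the type I and the type II receptor, stood at 147.1, 138.6 and 145.8 CPM in hetX753, 128.8, 147.6 and 121.4 CPM in hetL1002P and 112.3, 109.1 and 87.5 CPM in WT. Every carrier library lay above every WT library, with a log2 fold change of 0.48 ± 0.12 for hetX753 against WT (adjusted p = 0.116) and 0.36 ± 0.12 for hetL1002P against WT (adjusted p = 0.579). Jak2, a kinase of the type II receptor, averaged 55.7 ± 3.81 CPM in hetX753, 48.7 ± 7.73 CPM in hetL1002P and 46.1 ± 1.3 CPM in WT, with a log2 fold change of 0.28 for hetX753 against WT (adjusted p = 0.244). Tyk2, a kinase of the type I receptor, averaged 12.3 ± 1.42 CPM in hetX753, 10.3 ± 1.39 CPM in hetL1002P and 9.13 ± 1.9 CPM in WT, with 0.43 ± 0.18 for hetX753 against WT (adjusted p = 0.211). Ifngr2, a chain of the type II receptor, averaged 83.6 ± 0.692 CPM in hetX753, 72.0 ± 11.2 CPM in hetL1002P and 92.3 ± 22.2 CPM in WT.

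Pathways that induce interferon and inhibitors of the response also held 0 called genes of 12 tested each, in every comparison. Mavs, the mitochondrial adaptor of RIG-I and MDA5, averaged 58.9 ± 6.18 CPM in hetX753, 51.7 ± 3.39 CPM in hetL1002P and 50.05 ± 1.75 CPM in WT. Tlr7, a receptor for single-stranded RNA, averaged 0.490 ± 0.103 CPM in hetX753, 0.789 ± 0.314 CPM in hetL1002P and 0.469 ± 0.107 CPM in WT. Irf5, a transcription factor of that route, averaged 5.51 ± 0.485 CPM in hetX753, 7.38 ± 3.02 CPM in hetL1002P and 5.20 ± 0.679 CPM in WT. Of the inhibitors, Socs1, which blocks JAK kinases, averaged 0.349 ± 0.382 CPM in hetX753, 1.23 ± 0.665 CPM in hetL1002P and 0.690 ± 0.364 CPM in WT. Its log2 fold change was -1.73 ± 0.70 for hetX753 against hetL1002P (adjusted p = 0.55). Samhd1, a nucleotide hydrolase, averaged 20.9 ± 1.39 CPM in hetX753, 23.4 ± 0.979 CPM in hetL1002P and 22.9 ± 0.791 CPM in WT, and Trex1, a DNA exonuclease, 21.1 ± 2.52, 17.4 ± 4.13 and 19.4 ± 4.34 CPM in the same 3 genotypes.

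Of 15 class I genes outside the member list, 12 were tested and 0 called in any comparison, and their median log2 fold change was -0.08 for hetX753 against WT, -0.19 for hetL1002P against WT and 0.10 for hetX753 against hetL1002P. At an unadjusted p under 0.05 for hetL1002P against WT, 4 of the 12 were lower (33.3%, against 2.57% of all genes), H2-K1, H2-D1, H2-T23 and B2m, and Erap1 was higher (8.33%, against 5.39%). H2-K1, H2-D1 and H2-T23 lay below WT in every hetL1002P library (25%, against 3.77% of all genes). Canx and Erap1 lay above WT in every library of both carriers. That was 16.7% of the 12 in each carrier, against 16.7% of all genes in hetX753 and 5.67% in hetL1002P. These class I genes were not counted again without hetL1002P 3 and WT 3, where the share of members fell below that of all genes. H2-D1, a class I heavy chain, averaged 34.0 ± 4 CPM in hetX753, 28.04 ± 2.29 CPM in hetL1002P and 42.8 ± 8.75 CPM in WT. Every hetL1002P library of H2-D1 lay below WT, with a log2 fold change of -0.61 ± 0.16 (adjusted p = 0.579). H2-Q4, a nonclassical heavy chain, averaged 16.2 ± 4.15 CPM in hetX753, 11.5 ± 3.43 CPM in hetL1002P and 15.5 ± 4.47 CPM in WT. The heavy chains are close paralogs, and how reads shared among them were counted is not given in the sources used here. Canx, the chaperone calnexin, averaged 68.8 ± 2.93 CPM in hetX753, 61.8 ± 1.63 CPM in hetL1002P and 57.2 ± 2.02 CPM in WT, with 0.27 ± 0.09 for hetX753 against WT (adjusted p = 0.166).

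Markers of other cells are given beside these values because many cell types express interferon-stimulated genes. The sum of 9 macrophage markers was 86.5, 92.7 and 89.0 CPM in hetX753, 102, 150 and 76.6 CPM in hetL1002P and 80.2, 137 and 136 CPM in WT. The sum overlapped between the genotypes and was lowest in hetL1002P 3. All 9 markers had a log2 fold change below 0 in hetX753 against WT (median -0.30) and in hetX753 against hetL1002P (median -0.26), and 5 of the 9 had one above 0 in hetL1002P against WT. Endothelial markers, 8 genes, summed to 231, 231 and 237 CPM in hetX753, 257, 263 and 172 CPM in hetL1002P and 263, 223 and 184 CPM in WT, with hetL1002P 3 the lowest again. Lymphocyte markers, 12 genes, summed to 3.02, 3.16 and 1.66 CPM in hetX753, 2.48, 0.971 and 1.33 CPM in hetL1002P and 1.27, 1.03 and 0.870 CPM in WT. Cd3e held most of that sum in hetX753, at 44, 48 and 23 counts, while Cd3d had 0 counts there and Cd3g had 0 as well. Dendritic cell markers summed to 2.89 to 5.39 CPM over the 9 libraries and neutrophil markers to 0.316 to 2.07 CPM, with Mpo at 0 counts in every library. The 8 fibre markers summed to 187100 to 201300 CPM in hetX753, 196400 to 222500 CPM in hetL1002P and 221800 to 243500 CPM in WT, so hetX753 lay below WT. No gene of these 6 marker lists was called in any comparison, and their part in the members' values was not tested.

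**Figure D4:**
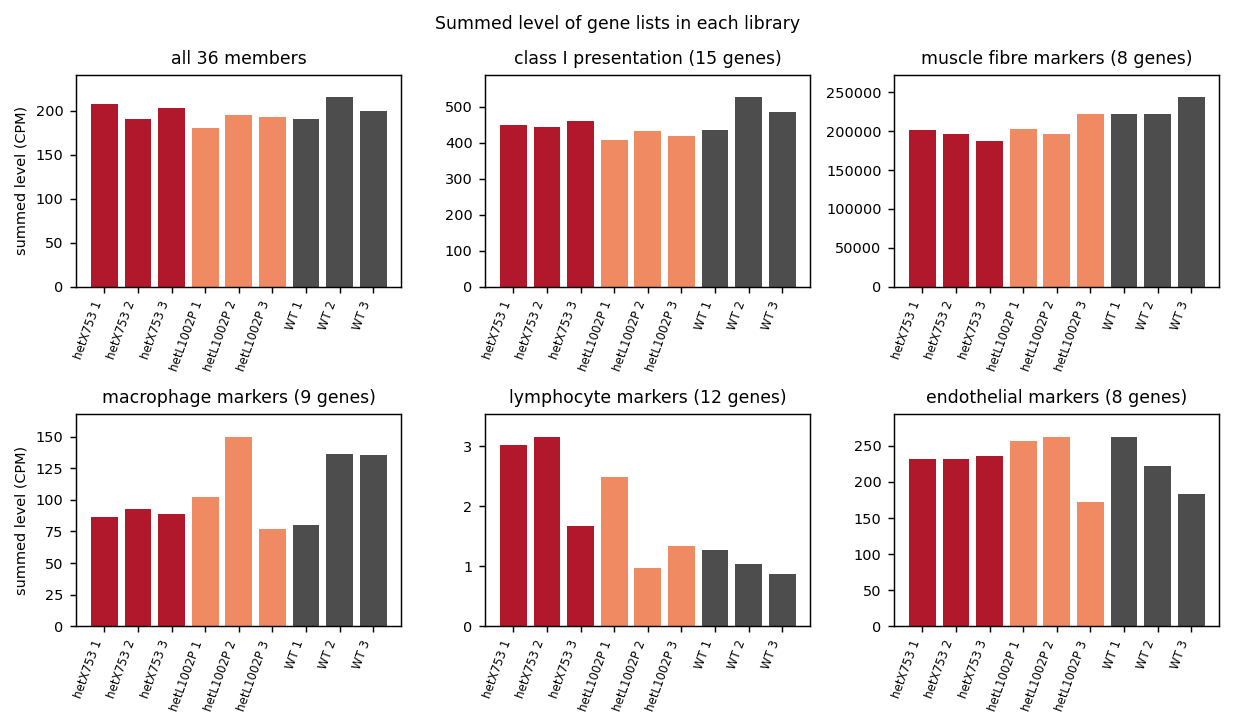
Summed level in CPM of the 36 members, of class I presentation genes and of 4 marker lists in each library (bars, from 0). The members lie between 180 and 215 CPM in all 9 libraries, a sum weighted to Tapbp, Ifi27, Ifi35 and Tap2. The hetX753 libraries lie below the WT libraries for muscle fibre markers, and hetL1002P 3 is the lowest for macrophage and endothelial markers.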

How the data were processed

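RNA from gastrocnemius (RNeasy Fibrous Tissue kit, TruSeq RNA v2 libraries, per the labels' protocols) was read in 9 libraries, 3 per genotype. The deposited table holds raw counts per gene symbol. The submitters' processing notes name featureCounts 1.4.6, Subread, Bowtie2 2.2.6, TopHat2 2.0.14 and the mm10 build, without saying what each did. Strand setting and treatment of multi-mapping reads: not given in the sources used here.

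Genes were filtered by filterByExpr, scaled by TMM and fitted with edgeR 4.0.16 (quasi-likelihood, robust, R 4.3.3) with a term for genotype alone over the 9 libraries together, which leaves 6 residual degrees of freedom. Benjamini-Hochberg adjustment ran over 12989 genes, and an adjusted p under 0.05 was called. The standard error is the log2 fold change divided by the square root of F. DESeq2 1.42.0, limma-voom (limma 3.58.1), other scalings, filters, left-out libraries and a replicate block were alternatives. The fit was tested on simulated counts. P-values measure only the spread between these libraries, which may be technical.

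The members, the gene lists and the tests were chosen with earlier results of these data known. Values in every library are given for the 10 members with the smallest joint p and the member of each role with the highest mean CPM; from the other lists up to 3 genes with the smallest p for hetX753 against hetL1002P are named, plus genes that show a list's pattern, chosen after their values were seen (Ifit3, Dtx3l, Xaf1, Isg15 and Jak1 likewise). Lengths come from GENCODE M21, and positions and promoters from RefSeq GRCm38.p6. Symbols not in the table under the listed name (Adgre1, Ly6g, Cgas and Sting1) were not analysed here.

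Libraries with the same replicate number were checked for pairing: their deviations from the genotype means correlated at 0.285, 0.36 and 0.516 for hetL1002P and WT, above the bound of 0.1, but at 0.0677, 0.164 and -0.144 for hetX753 and WT and at -0.16, 0.00565 and -0.279 for hetX753 and hetL1002P. The labels do not say what a number marks. hetL1002P and WT met the bound in every pair of the same number and are also given as a blocked fit. Some pairs of different number passed it too, hetL1002P 2 with WT 1 at 0.198 and hetX753 1 with hetL1002P 3 at 0.281 among them. Deviations within a genotype are not independent, and hetL1002P 3 and WT 3 stood apart. These correlations therefore cannot show that a number marks a pairing. Within each genotype every pair of libraries differed by more than sampling noise (chi-square 14.3 to 65.6 per degree of freedom).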

Additional observations from a re-analysis of the deposited data

How the results depend on the processing

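The count of members called was 0 in all 20 alternatives for each pair of genotypes and in all 18 for the joint test; up to 4 members had no DESeq2 adjusted p. The closest were Rsad2 in hetX753 against WT (adjusted p 0.0539 with DESeq2, 0.363 at the highest) and Bst2 in hetL1002P against WT (adjusted p 0.0506 with the replicate block on those 2 genotypes alone, 0.999 at the highest). All 18 differences of members at an unadjusted p under 0.05 kept their sign in all 20 alternatives. They were picked for a small p in the same counts that the alternatives reuse, so a kept sign says little about them. For hetX753 against WT, Trim25 (edgeR unadjusted p 0.465) also kept its sign in all 20, and Isg15 (0.956) in 14. For hetX753 against WT the members' median of 0.04 ranged from -0.017 (without hetX753 1) to 0.26 (without hetX753 2) when 1 library was left out; it was -0.006 without hetX753 3, -0.01 without WT 1, 0.205 without WT 2 and 0.16 without WT 3. The members' medians ranged from -0.137 to 0.075 for hetL1002P against WT and from 0.09 to 0.38 for hetX753 against hetL1002P. Library totals alone moved the median of all genes to 0.12 and the members' median to 0.15 for hetX753 against WT, to 0.10 and 0.075 for hetL1002P against WT, where the sign of the members' median turned, and to 0.02 and 0.21 for hetX753 against hetL1002P.

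The count over all genes was unstable. For hetX753 against WT it was 66, and 31 with library totals alone, 660 with DESeq2, 340 without both hetL1002P 3 and WT 3 (left out because of how they stood in these data), 254 on the 2 genotypes alone and 106 with the replicate block on them. Leaving out 1 library gave 0 to 669, with 34, 17 and 3 without hetX753 1, 2 and 3, 13 and 669 without hetL1002P 1 and 3, and 0, 9 and 7 without WT 1, 2 and 3. For hetL1002P against WT it was 0, and 2 without a filter, 5 with DESeq2, 2 with limma-voom, 2 without both libraries, 635 with the replicate block on the 2 genotypes alone, where 0 members were called, and 0 to 1 without 1 library (1 without hetL1002P 3). For hetX753 against hetL1002P it was 15, and 38 without a filter, 138 with DESeq2, 95 without both libraries, 31 with the replicate block on all 9, 5 on the 2 genotypes alone and 2 with the block on them. Leaving out 1 library gave 0 to 19, with 7 and 3 without hetX753 1 and 3 and 0 and 2 without hetL1002P 1 and 2. For the joint test it was 28, and 16 with library totals alone, 58 without a filter, 384 with DESeq2 and 194 without both libraries. Leaving out 1 library gave 0 to 209, with 11 and 6 without hetX753 2 and 3, 0 and 209 without hetL1002P 1 and 3, and 3, 11 and 11 without WT 1, 2 and 3. The cause was not tested. Members with few counts, Zbp1, Oas1a and Ifi44, had under 10 counts in some library, which limits what their values can show.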

Other observations

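A further 13 interferon-induced genes were chosen after their values were seen, which limits what their p-values can show. Of these, 9 had enough reads to be tested, and none passed the adjusted threshold in any comparison (edgeR quasi-likelihood test). The smallest adjusted p was 0.0997, for Ifitm2 in hetX753 against WT, followed by 0.133 for I830012O16Rik in the same comparison. Both lay below the 0.137 of Rsad2, the smallest of a member there. The log2 fold change lay below 0 for 7 of the 9 in hetX753 against WT and for 7 of the 9 in hetL1002P against WT. Ifitm2, a membrane protein that blocks viral entry, averaged 19.9 ± 0.225 CPM in hetX753, 22.7 ± 1.53 CPM in hetL1002P and 27.9 ± 3.15 CPM in WT (SD, n = 3 each). Every carrier library of Ifitm2 lay below every WT library. Of all genes, 15.8% lay wholly below WT in hetX753 and 3.77% in hetL1002P. Ifitm3, its relative, averaged 21.6 ± 3.42 CPM in hetX753, 22.2 ± 1.78 CPM in hetL1002P and 28.3 ± 3.39 CPM in WT. Ifi27l2a averaged 10.1 ± 1.98 CPM in hetX753, 9.01 ± 1.43 CPM in hetL1002P and 15.01 ± 5.13 CPM in WT. I830012O16Rik averaged 2.51 ± 0.402 CPM in hetX753, 4.16 ± 1.79 CPM in hetL1002P and 5.01 ± 0.797 CPM in WT. Every hetX753 library of it lay below every WT library, as for 15.8% of all genes. Parp10, a further ADP-ribosyltransferase, averaged 5.38 ± 0.19 CPM in hetX753, 5.39 ± 0.143 CPM in hetL1002P and 5.95 ± 0.774 CPM in WT. Oas1b averaged 0.526 ± 0.136 CPM in hetX753, 0.318 ± 0.0782 CPM in hetL1002P and 0.552 ± 0.103 CPM in WT, and Oas2 averaged 0.790 ± 0.343 CPM in hetX753, 1.13 ± 0.423 CPM in hetL1002P and 1.32 ± 0.619 CPM in WT. The other 2 of the 9 were higher on average in both carriers than in WT. Ifitm1, a relative of Ifitm2 and Ifitm3, averaged 0.667 ± 0.0186 CPM in hetX753, 0.648 ± 0.188 CPM in hetL1002P and 0.491 ± 0.249 CPM in WT. Cxcl9, a chemokine, averaged 0.645 ± 0.127 CPM in hetX753, 0.619 ± 0.302 CPM in hetL1002P and 0.588 ± 0.225 CPM in WT. Both overlapped between the 3 genotypes. Oas3, Oasl1, Cxcl10 and Ccl5 were too low to test.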
